A study of Danio rerio with 8 samples.

Results

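The prostaglandin synthesis genes are described here across 8 RNA-seq libraries of sorted cells from adult zebrafish. The members were named by symbol: ptgdsb.1, ptgdsb.2, ptgdsa, ptgs1, ptgs2a, ptgs2b, ptges, ptgis, hpgd and pla2g4aa. They were found as 11 of the 28272 rows of the counts table. The symbol table gives ptgs2 and pla2g4a without their paralog letters, each for 2 rows, so all 4 rows were kept and are told apart by their Ensembl identifiers. One of the pla2g4a rows may therefore be the paralog pla2g4ab. The set was selected on the log2 change and levels of this same contrast, with differences between these groups already known, ptgdsb.1 and ptgdsb.2 being among the largest in the series. Levels and changes of the members are therefore a description. No p-value is printed for a member, and a count of members past the threshold used for all genes only describes them.

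All fish carried the BRAF oncogene with its V600E change under the promoter of mitfa (a pigment cell gene), the p53 allele zdf1, EGFP under the mitfa promoter, and the b4 allele at the alb locus. Unpigmented cells positive for EGFP had been taken by fluorescence-activated sorting. Of the libraries, 4 came from cells labelled scale melanocytes and 4 from melanoma, and the study compared gene expression between these cell types. Whether each library stands for its own fish, or for pooled fish, is not in the labels. A p-value therefore reflects how far these libraries spread, and that spread may be technical. The scale melanocyte set is referred to as scale libraries. Their columns are replicate 1, replicate 2 and a pair of columns that both bear the name of replicate 3, called its first and second column. Values of the scale libraries are listed in that order, and those of melanoma from replicate 1 to replicate 4.

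Libraries held between 86888494 and 100270657 counts. Markers went against the label of the scale libraries. Summed over 22 pigment cell marker rows, levels were between 116 and 157 CPM there and between 2674 and 13022 CPM in melanoma. Over 34 epidermal rows they were between 70493 and 148057 CPM in the scale libraries and between 2468 and 3812 CPM in melanoma, where the keratin gene krt8, picked after its values were seen, alone averaged 1945 CPM. A lower level in melanoma can mean fewer cells of a type or less RNA per cell, and these cannot be told apart in sorted bulk samples. Levels are counts scaled by TMM library sizes (CPM), as mean ± SD over n = 4 libraries per group. Transcript lengths were not used here, so levels are compared between libraries and not between genes.

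Prostaglandins are short-lived lipid signals made from arachidonate. A phospholipase A2 (pla2g4a) frees arachidonate from membranes, and the cyclooxygenases (ptgs1, ptgs2) turn it into the common precursor prostaglandin H. Terminal synthases then make prostaglandin D (ptgds), prostaglandin E (ptges) or prostacyclin (ptgis), and hpgd starts their breakdown. In mammalian skin, prostaglandins from keratinocytes act in inflammation, wound repair and pigmentation, and the ptgs2 gene is quickly induced by stress and growth signals, while ptgs1 is expressed more steadily.

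The log2 change of the 11 members (melanoma minus scale libraries) lay between -12.15 and -0.53, with a median of -2.85, against a median of 0.05 over all 26749 tested genes. All 11 passed the filter on low counts. In 8 of the 11 rows every melanoma library lay below every scale library, and the same number passed an adjusted p under 0.05 as lower (edgeR quasi-likelihood test). Over all tested genes 15.2% were called lower, 21.7% higher and 36.8% in either direction, while groups did not overlap for 36.9%, with 15.2% lower. As the members were chosen with this contrast known, nothing is read from their count. The rows whose groups overlapped were ptgdsa, ptgs2 ENSDARG00000010276 and pla2g4a ENSDARG00000017141. With libraries scaled by total counts alone, 5 rows passed, all as lower. Under that scaling 12651 of the 26749 tested genes passed in either direction and 1778 as lower.

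**Figure D1:**
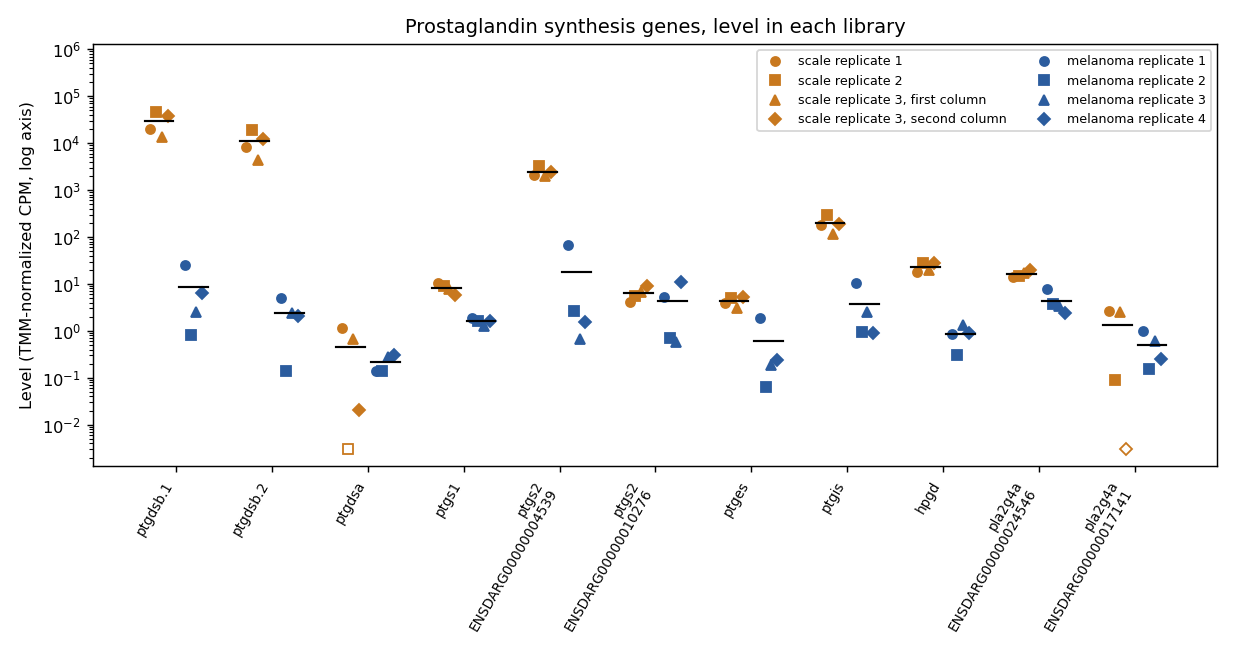
Level of each member row in each library (TMM-normalized CPM, log axis); orange symbols are scale libraries, blue symbols melanoma libraries, black lines group means, and open symbols libraries with 0 counts, drawn at 0.003 CPM. Groups stand apart for 8 rows and overlap for ptgdsa, ptgs2 ENSDARG00000010276 and pla2g4a ENSDARG00000017141.

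Release of arachidonate was represented by the pla2g4a rows, which encode cytosolic phospholipase A2. The row ENSDARG00000024546 was at 14.3, 14.7, 16.8 and 19.6 CPM in the scale libraries and at 7.95, 3.74, 3.38 and 2.45 CPM in melanoma. The scale libraries lay close together and above all melanoma libraries, of which replicate 1 was highest, at 48.6% of the scale mean. Group means were 16.4 ± 2.44 and 4.38 ± 2.44 CPM, a log2 change of -1.90 ± 0.42 (± SE), and -0.71 under total counts alone.

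The other pla2g4a row, ENSDARG00000017141, was low, and near the floor in scale replicate 2 and the second column of replicate 3. It was at 2.67, 0.0889, 2.58 and 0 CPM in the scale libraries and at 1.01, 0.158, 0.621 and 0.256 CPM in melanoma. The 0 in the second column of replicate 3 allows a level of up to 0.0629 CPM, from a limit of 3 counts. Scale libraries fell apart into a high and a low pair, and the low pair, replicate 2 and the second column of replicate 3, lay below every melanoma library. In that low pair fewer genes were detected: 22836 and 22537 genes reached 10 counts. Replicate 1 and the first column of replicate 3 had 26377 and 26448. The part of this difference in the levels was not tested. The log2 change was -1.38 ± 1.23, and 0.13 with limma-voom.

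The cyclooxygenase rows differed from each other. The ptgs2 row ENSDARG00000004539, for an inducible cyclooxygenase, was at 2121, 3204, 2036 and 2477 CPM in the scale libraries. In melanoma it was at 66.2, 2.60, 0.676 and 1.56 CPM. The scale libraries differed by up to 1.57-fold among themselves, while melanoma replicate 1 was 98.0-fold above melanoma replicate 3. Even so, the lowest scale library was 30.7-fold above melanoma replicate 1. Means were 2459.7 ± 532 and 17.8 ± 32.3 CPM, a log2 change of -7.11 ± 1.45. It was -10.57 without melanoma replicate 1 and -5.77 under total counts alone, the ends of its range over the alternatives tried.

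The second ptgs2 row, ENSDARG00000010276, showed no such separation. It was at 4.20, 5.60, 6.82 and 8.96 CPM in the scale libraries and at 5.22, 0.693, 0.567 and 11.3 CPM in melanoma. Melanoma replicate 4 was the highest of all 8 libraries, replicate 1 lay among the scale libraries, and replicates 2 and 3 lay below them. The log2 change was -0.53 ± 0.79, turning to 0.73 under total counts alone. In the RefSeq annotation of assembly GRCz12tu, ptgs2a has pla2g4aa as its next protein-coding gene and ptgs2b has pla2g4ab. Which row here belongs to which copy was not resolved.

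The steady cyclooxygenase gene ptgs1 (ENSDARG00000052148) was at 10.7, 9.11, 7.95 and 5.70 CPM in the scale libraries and at 1.90, 1.62, 1.26 and 1.61 CPM in melanoma. Both groups were tight, and the lowest scale library was 3.0-fold above the highest melanoma library. Means were 8.35 ± 2.09 and 1.60 ± 0.264 CPM, a log2 change of -2.39 ± 0.40, and -1.26 under total counts alone. Of the member rows whose groups stood apart, ptgs1 varied least within melanoma, by 1.51-fold.

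Prostaglandin D synthase genes took most of the reads of the set in the scale libraries, but not in melanoma. The lipocalin-type synthase gene ptgdsb.1 (ENSDARG00000027088) was at 20475, 47182, 13693 and 38768 CPM in the scale libraries and at 25.1, 0.804, 2.49 and 6.55 CPM in melanoma. Its copy ptgdsb.2 (ENSDARG00000071626) was at 8360.1, 18908, 4414 and 12472 CPM against 5.12, 0.142, 2.37 and 2.04 CPM. In both genes melanoma replicate 2 was lowest. Highest were scale replicate 2 and the second column of replicate 3, the scale libraries of fewest detected genes. Their TMM factors were also the lowest, at 0.467 and 0.538. Scale replicate 1 and the first column of replicate 3 had 0.863 and 0.874. A lower factor gives a higher CPM for the same share of counts. As shares of all counts, ptgdsb.1 was at 1.767%, 2.204%, 1.196% and 2.085% in the scale libraries. For ptgdsb.1 the same libraries were highest, with a narrower spread than in CPM. Shares of ptgdsb.2 were 0.722%, 0.883%, 0.386% and 0.671%, so there replicate 1 lay above the second column of replicate 3. In CPM, the lowest scale library stood 545-fold above the highest melanoma library for ptgdsb.1 and 862-fold for ptgdsb.2.

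Group means were 30029.5 ± 15586 against 8.74 ± 11.2 CPM for ptgdsb.1 and 11039 ± 6193 against 2.42 ± 2.05 CPM for ptgdsb.2. Over the alternatives tried, the log2 change ranged from -13.15 to -10.31 for ptgdsb.1 and from -12.82 to -10.75 for ptgdsb.2. Both genes together held 2.49%, 3.09%, 1.58% and 2.76% of all counts in the scale libraries. In melanoma they held 0.00505%, 0.000129%, 0.000710% and 0.00136%. They made up between 89.1% and 94.9% of the member reads in the scale libraries and between 8.42% and 31.0% in melanoma.

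The genes ptgdsb.1 and ptgdsb.2 are next to each other in the RefSeq annotation and have similar sequences, so reads may be shared or lost between them. In the scale libraries ptgdsb.1 had 2.45, 2.50, 3.10 and 3.11 reads for each read of ptgdsb.2. In melanoma this ratio was 4.90, 5.67, 1.05 and 3.21. The ratio was narrow in the scale libraries and wide in melanoma, and the groups overlapped (2.79 ± 0.366 against 3.71 ± 2.05). Melanoma values rest on few reads, from 102 to 4110 for ptgdsb.1 and from 18 to 838 for ptgdsb.2. Lengths are not corrected for in this ratio, so it compares libraries and not the genes' levels.

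**Figure D2:**
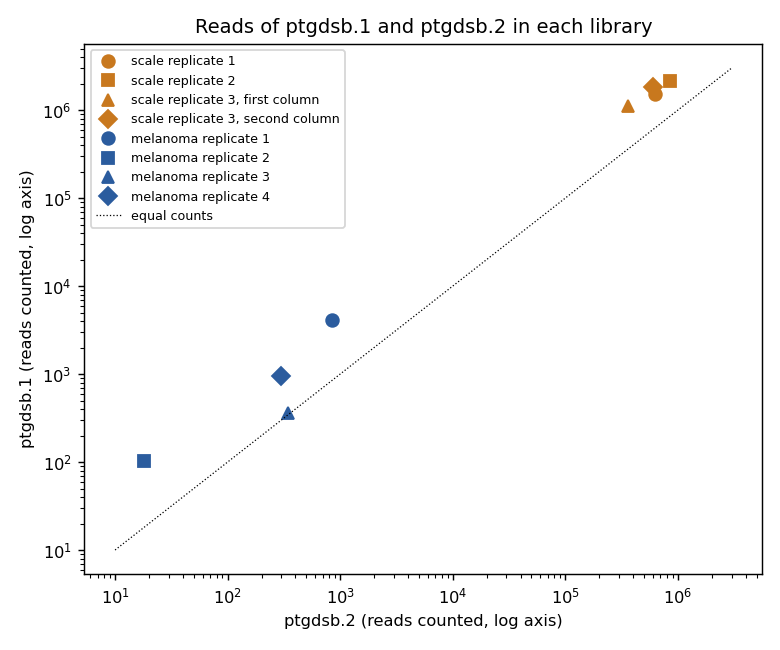
Reads counted for ptgdsb.1 against ptgdsb.2 in each library (both axes log); orange symbols are scale libraries and blue symbols melanoma libraries, and the dotted line marks equal counts. All 8 libraries lie above the line, melanoma replicate 3 closest to it with 365 and 347 reads.

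The third synthase gene of this type, ptgdsa (ENSDARG00000069439), was low in every library. It was at 1.15, 0, 0.659 and 0.0210 CPM in the scale libraries and at 0.141, 0.142, 0.280 and 0.304 CPM in melanoma. The 0 in scale replicate 2 allows up to 0.0667 CPM. The scale libraries again split into the same high and low pairs, with melanoma between them. The low pair was again that of fewest detected genes. The log2 change was -1.09 ± 1.18, and 0.37 with limma-voom.

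Prostacyclin and prostaglandin E synthesis were represented by 1 member each. The prostacyclin synthase gene ptgis (ENSDARG00000060094) was at 183, 295, 114 and 189 CPM in the scale libraries and at 10.7, 0.969, 2.49 and 0.892 CPM in melanoma. Groups stood 10.7-fold apart at their nearest libraries. Means were 195 ± 74.5 and 3.76 ± 4.67 CPM, a log2 change of -5.70 ± 0.86, which was -7.07 without melanoma replicate 1 and -4.36 under total counts alone.

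The inducible prostaglandin E synthase gene ptges (ENSDARG00000020136) was at 3.88, 5.02, 3.09 and 5.31 CPM in the scale libraries and at 1.89, 0.0630, 0.191 and 0.242 CPM in melanoma. Melanoma replicate 1 lay near the lowest scale library, 1.63-fold below it. The other melanoma libraries held between 1.46% and 5.59% of the scale mean. The log2 change was -2.85 ± 0.90, with -4.69 without melanoma replicate 1 and -1.52 under total counts alone. In melanoma the values rest on 310, 8, 28 and 35 reads.

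Breakdown was represented by hpgd (ENSDARG00000012016), whose product oxidizes prostaglandins as the first step of their inactivation. It was at 18.0, 28.2, 19.4 and 28.0 CPM in the scale libraries and at 0.874, 0.307, 1.37 and 0.899 CPM in melanoma. For hpgd, melanoma replicate 3 and not replicate 1 was highest, and the nearest libraries of the groups stood 13.2-fold apart. Means were 23.4 ± 5.45 and 0.861 ± 0.433 CPM, a log2 change of -4.76 ± 0.51, and -3.52 under total counts alone.

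Melanoma replicate 1 was the highest melanoma library for 8 of the 11 member rows, while it was highest for 24.7% of all tested genes. Against the mean of the scale libraries it held 2.69% for ptgs2 ENSDARG00000004539, 5.47% for ptgis and 43.8% for ptges. The other melanoma libraries held between 0.0275% and 0.106%, between 0.457% and 1.27%, and between 1.46% and 5.59%, respectively. Marker lists also differed between these libraries. The median leukocyte marker of 25 stood at 536% of its scale mean in melanoma replicate 1 and at 96.6%, 31.0% and 84.5% in replicates 2 to 4. The median epidermal marker of 34 stood at 0.772% in replicate 1 and at 0.0563%, 0.335% and 0.354% in the others.

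Summed leukocyte markers were between 2119.5 and 5229 CPM in the scale libraries and at 9011, 1851, 503 and 1475 CPM in melanoma replicates 1 to 4. The macrophage receptor gene marco, picked with its values known, had the highest log2 change of these rows (3.57). It stood at 112 CPM in melanoma replicate 1 and between 15.2 and 28.1 CPM in the others. Rows of mpeg1 on that list varied. In replicates 1 to 4, ENSDARG00000055290 was at 121, 83.4, 22.4 and 43.5 CPM and ENSDARG00000043093 at 3.40, 3.10, 1.08 and 2.79 CPM. The row ENSDARG00000078569 was at 0.348, 0.843, 1.02 and 0.0484 CPM. The median pigment cell marker stood at 807% of its scale mean in replicate 1 against 2752% to 3037% in the others. The part of these cells in the members' levels was not tested. Of the 25 leukocyte rows, 4 rose and 2 fell in melanoma (adjusted p under 0.05). Other lists had 31 of 34 epidermal rows, 22 of 27 fibroblast and scale bone rows and 3 of 12 ionocyte rows lower, with 0, 2 and 2 higher. Of 22 pigment cell rows 16 were higher and 0 lower, and of 13 endothelium and thrombocyte rows 2 were higher and 2 lower. Over all tested genes 21.7% were called higher and 15.2% lower, and the leukocyte and the endothelium and thrombocyte counts are near or below these shares.

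Immediate early and heat shock genes, the list of dissociation stress, are a class to which ptgs2 also belongs. Of its 29 rows, 20 fell and 2 rose in melanoma (adjusted p under 0.05), beside 15.2% and 21.7% of all tested genes. Their summed level was between 150866 and 254098 CPM in the scale libraries and between 6035 and 12838 CPM in melanoma. The ptgs2 row ENSDARG00000004539 and this list were thus lower in the same libraries, and the part of stress in the level of ptgs2 was not tested.

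**Figure D3:**
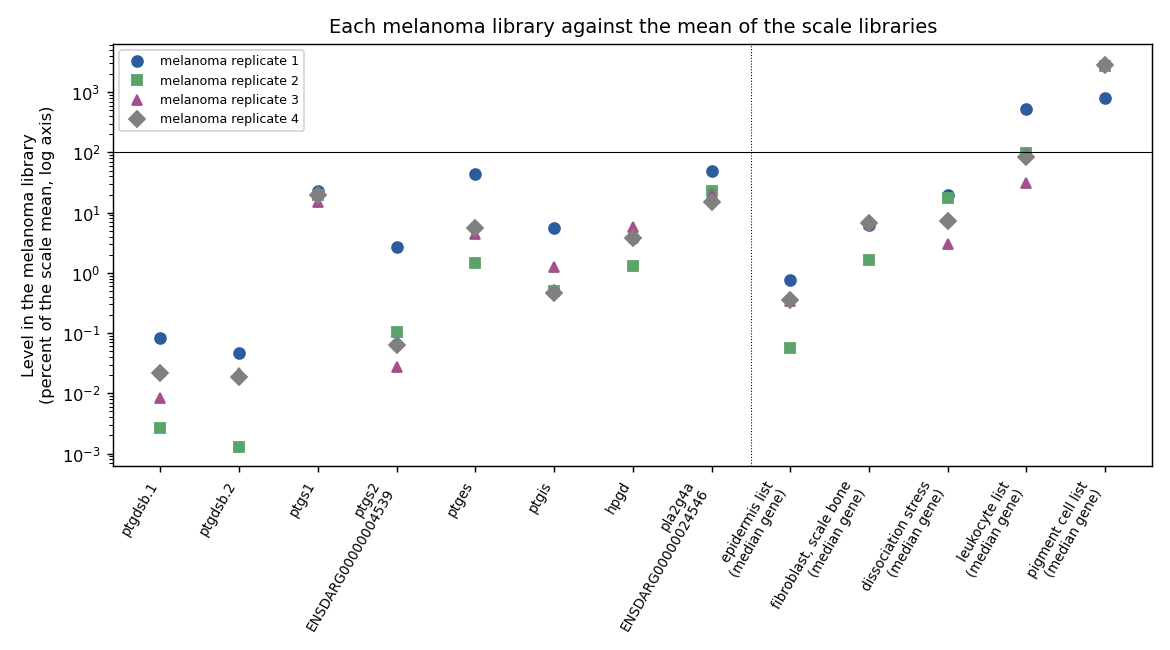
Level in each melanoma library as a percent of the mean of the 4 scale libraries (log axis), for the 8 member rows whose groups did not overlap (left) and for the median gene of 5 marker lists (right); the horizontal line marks 100%. Melanoma replicate 1 (circles) is highest for 7 of the 8 rows shown and for the leukocyte, epidermis and dissociation stress lists, and lowest for the pigment cell list.

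Profiles over the 8 libraries were compared by the root mean square distance of centred log2 CPM, among 5569 genes at 10 CPM or more with a symbol of their own. Nearest to ptgdsb.1 were cyp7a1 (distance 0.68), the keratin gene krt91 (0.83) and the laminin gene lamb3 (1.05). Nearest to ptgdsb.2 were cyp7a1 (1.06), the keratin gene cyt1 (1.07) and krt91 (1.14), while ptgdsb.1 and ptgdsb.2 were 0.66 apart. For ptgs2 ENSDARG00000004539 the nearest genes were the claudin gene cldna (0.96), cfd (0.98) and the epithelial adhesion gene epcam (0.996). For ptgis they were tuba8l2 (0.38), hhla2a.1 (0.51) and the heat shock gene hsp70l (0.54).

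The profile of hpgd was matched most closely by rab11al (0.25), the epidermal transcription factor gene tp63 (0.27) and rapgefl1 (0.27). For pla2g4a ENSDARG00000024546 the nearest genes were prickle3 (0.28), slc4a7 (0.29) and arhgap29b (0.29). Of these neighbours, krt91, cyt1, epcam and tp63 are on the epidermal list and hsp70l is on the list of dissociation stress. The other neighbours named are on no marker list. The distance spans both groups, so genes with a like difference between the groups come out nearest. No cell type is read from these neighbours.

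Beyond the members, 57 further rows of the pathway and its relatives were tested in the same fit. Of these, 17 fell and 10 rose in melanoma at an adjusted p under 0.05, and 30 did not pass. Their median log2 change was -0.35, against 0.05 over all genes. The 29.8% that fell and 17.5% that rose stand beside the 15.2% and 21.7% of all tested genes called in each direction. For counts from this fit, the same 15.2% and 21.7% are the background of each pathway list below. Counts of those lists under another scaling stand beside the all-gene counts of that scaling, given next. The balance depended on scaling, in these rows as in all tested genes. Of the pathway rows, 5 rose and 19 fell with upper quartile factors, beside 4041 and 5667 of the 26749 tested genes. With total counts alone 20 pathway rows rose and 6 fell, beside 10873 and 1778 of all tested genes.

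**Figure D4:**
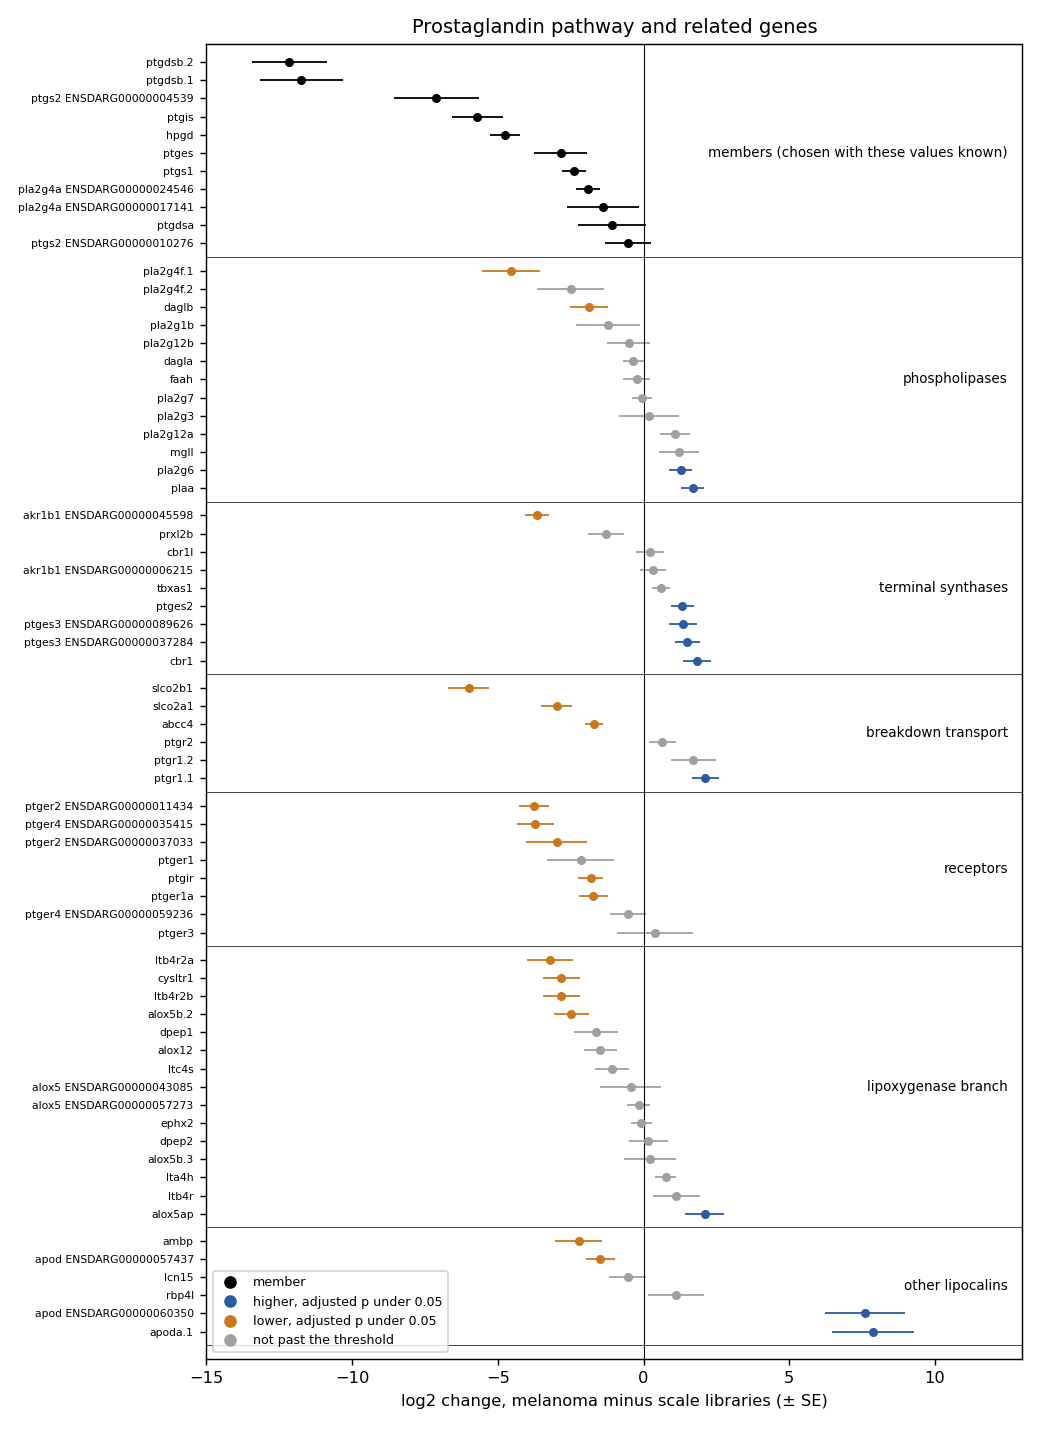
Log2 change (melanoma minus scale libraries, ± SE) of the 11 member rows and of 57 rows in 6 lists of pathway and related genes; blue marks higher and orange lower at an adjusted p under 0.05 (edgeR quasi-likelihood test with Benjamini-Hochberg adjustment), grey not past the threshold, and black the members, shown without a test. Receptor rows lie to the left of 0 except ptger3 (under total counts alone the ptger4 row ENSDARG00000059236 also turns above 0), and the prostaglandin E synthase genes ptges2 and ptges3 lie to the right.

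Receptor genes fell where they passed the test: 5 of 8 rows fell, 0 rose, and their median log2 change was -1.98. The prostaglandin E receptor gene ptger2 (ENSDARG00000011434), whose receptor raises cyclic AMP, was at 8.27, 14.4, 5.54 and 11.2 CPM in the scale libraries. In melanoma it was at 1.09, 0.457, 0.471 and 0.899 CPM (-3.75 ± 0.51 in log2, adjusted p = 0.000217). Another receptor gene that acts through cyclic AMP, ptger4 (ENSDARG00000035415), was at 4.99, 10.9, 13.1 and 11.5 CPM against 1.59, 0.441, 0.219 and 0.8294 CPM (-3.71 ± 0.64 in log2, adjusted p = 0.000899). For both, every scale library lay above every melanoma library.

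Chosen after their values were seen, the prostacyclin receptor gene ptgir, at 7.44 ± 0.898 against 2.11 ± 0.761 CPM, fell by 1.82 (adjusted p = 0.00547). The receptor gene ptger1a, chosen likewise, fell by 1.72 (adjusted p = 0.0171), and the second ptger2 row, ENSDARG00000037033, by 2.99 (adjusted p = 0.0402). The call of that row was lost in several alternatives, among them omitting scale replicate 1 (adjusted p = 0.0659), scale replicate 2 (0.0908), melanoma replicate 3 (0.0696) or replicate 4 (0.0909). Under total counts alone 2 of the 8 receptor rows were called lower. Levels of ptger3, ptger1 and the ptger4 row ENSDARG00000059236 did not exceed 1.27 CPM in any library, and none of these passed the test.

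**Figure D5:**
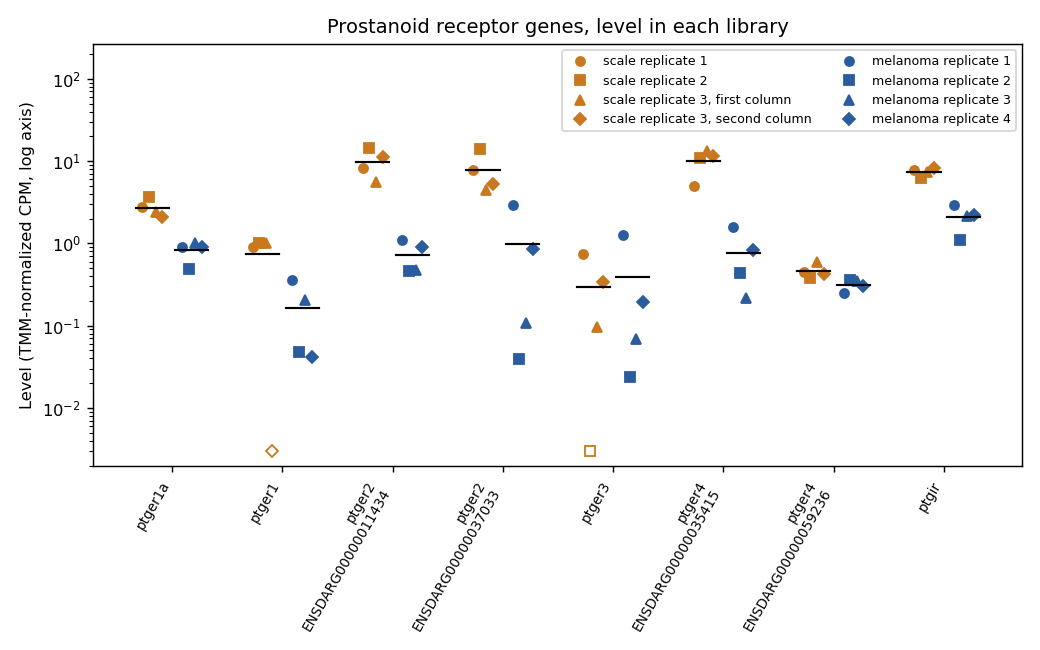
Level of each prostanoid receptor row in each library (TMM-normalized CPM, log axis), with symbols as in the plot of member levels; black lines are group means and open symbols, drawn at 0.003 CPM, mark 0 counts. The groups stand apart for ptger1a, both ptger2 rows, both ptger4 rows and ptgir, and overlap for ptger1 and ptger3.

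Of 9 rows for terminal enzymes outside the members, 4 rose and 1 fell, while with upper quartile factors 1 rose and 2 fell. The aldose reductase gene akr1b1 (ENSDARG00000045598), whose human product can make prostaglandin F, fell from 358 ± 112 to 28.4 ± 8.96 CPM (-3.65 ± 0.42 in log2, adjusted p = 8.3e-05). The other akr1b1 row, ENSDARG00000006215, did not pass, at 30.3 ± 11.9 against 37.8 ± 20.1 CPM (0.32 ± 0.45 in log2, adjusted p = 0.605). Under total counts alone that row was called higher (1.58 in log2, adjusted p = 0.00665). The carbonyl reductase gene cbr1 was at 4.51 ± 0.643 against 16.1 ± 9.17 CPM and rose by 1.83 ± 0.49 (adjusted p = 0.0117), with melanoma replicate 1, at 4.60 CPM, among the scale libraries. That call ended when scale replicate 1 (adjusted p = 0.0528) or the replicate 3 library of the first column (0.0584) was omitted.

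The ptges3 row ENSDARG00000037284, for a chaperone-associated protein that has also been described as a prostaglandin E synthase, rose from 61.7 ± 22.1 to 175 ± 76.2 CPM (1.504 ± 0.43 in log2, adjusted p = 0.0166). Its call was lost with upper quartile factors (adjusted p = 0.0601) or a filter of 5 CPM in 4 libraries (0.0583). Omitting scale replicate 1 (0.111), scale replicate 2 (0.0700), the first column of replicate 3 (0.107) or melanoma replicate 4 (0.0555) ended it too. The other ptges3 row, ENSDARG00000089626, was at 99.6 ± 35.6 against 255 ± 121 CPM, with overlapping groups (1.35 ± 0.47 in log2, adjusted p = 0.0388). That row lost its call in 14 of the alternatives and kept it in 5. The prostaglandin E synthase gene ptges2, picked with its values known, was at 4.89 ± 1.82 against 12.3 ± 2.80 CPM (1.34 ± 0.39 in log2, adjusted p = 0.0183). It lost its call with RLE factors (adjusted p = 0.0546), the authors' size factors (0.0536), upper quartile factors (0.0829) and the 5 CPM filter (0.0901). The same held without scale replicate 1 (0.124), scale replicate 2 (0.0721) or the first column of replicate 3 (0.133). The thromboxane synthase gene tbxas1 did not pass, at 39.0 ± 3.63 against 59.3 ± 13.2 CPM (adjusted p = 0.142). Every melanoma library still lay above every scale library for tbxas1. Under total counts alone it was called higher (1.74 in log2, adjusted p = 0.00211).

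Of 6 rows for breakdown and transport, 3 fell and 1 rose. The organic anion carrier gene slco2b1 was at 195, 394, 241 and 316 CPM in the scale libraries and at 9.47, 0.954, 3.13 and 4.37 CPM in melanoma (-6.00 ± 0.70 in log2, adjusted p = 8.6e-05). The prostaglandin uptake carrier gene slco2a1 was at 17.6 ± 5.66 against 2.24 ± 1.39 CPM (-2.97 ± 0.54 in log2, adjusted p = 0.00119). The exporter gene abcc4, chosen after its values were seen, fell by 1.69 (adjusted p = 0.00137) but not under total counts alone (0.221). The reductase gene ptgr1.1, whose product acts on prostaglandins after the hpgd step, went the other way, from 20.6 ± 8.33 to 89.0 ± 39.5 CPM (2.11 ± 0.46 in log2, adjusted p = 0.00398).

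Of 13 rows for phospholipases and other arachidonate-releasing enzymes, 2 rose, 2 fell and 9 did not pass, shares no higher than or close to those over all tested genes (21.7% higher, 15.2% lower). The cytosolic phospholipase gene pla2g4f.1 was at 3.73 ± 1.11 against 0.156 ± 0.167 CPM (-4.56 ± 0.99 in log2, adjusted p = 0.0037). The diacylglycerol lipase gene daglb was at 2.29 ± 1.39 against 0.624 ± 0.377 CPM (-1.87 in log2, adjusted p = 0.0378). Its call was lost without the second column of scale replicate 3 (adjusted p = 0.101) or melanoma replicate 1 (0.0820), 3 (0.0947) or 4 (0.0843). The gene plaa, for a phospholipase-activating protein, rose from 13.5 ± 3.87 to 43.6 ± 16.4 CPM (1.69 ± 0.40 in log2, adjusted p = 0.00642). The calcium-independent phospholipase gene pla2g6 was at 7.42 ± 2.72 against 17.9 ± 5.77 CPM (adjusted p = 0.0295). It was not called with upper quartile factors (adjusted p = 0.128) or without scale replicate 1 (0.108), scale replicate 2 (0.112), the first column of replicate 3 (0.0732), melanoma replicate 3 (0.0842) or melanoma replicate 4 (0.0612).

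The lipoxygenase branch uses the same arachidonate to make leukotrienes. Of its 15 rows, 4 fell and 1 rose, and under total counts alone 3 rose and 0 fell. The receptor genes cysltr1, for cysteinyl leukotrienes, and ltb4r2b, for leukotriene B, fell by 2.83 each (adjusted p = 0.00451 and 0.00445). The gene alox5ap, for the protein that presents arachidonate to lipoxygenase in leukocytes, was at 0.932 ± 0.512 against 3.98 ± 3.34 CPM (2.09 ± 0.67 in log2, adjusted p = 0.0287). In melanoma replicate 1, where leukocyte markers were highest, alox5ap was at 8.82 CPM, and without that library its call was lost (adjusted p = 0.124). Omitting scale replicate 1 (adjusted p = 0.0923), replicate 2 (0.0977) or the first replicate 3 column (0.113), or using limma-voom (0.0637), ended it too. So did upper quartile factors (adjusted p = 0.0747), a replicate block (0.0618) or omitting both scale libraries of fewest detected genes (0.0743). The part of leukocytes in the level of alox5ap was not tested.

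Lipocalins, the carrier family to which the ptgds proteins belong, had 2 of 6 other rows higher and 2 lower. The apolipoprotein D gene apoda.1 was at 16.6, 21.3, 1298 and 173 CPM in melanoma, against 1.60 ± 0.391 CPM in the scale libraries (adjusted p = 0.00108). The apod row ENSDARG00000060350 was at 17.1, 21.4, 1302 and 174 CPM in the same libraries, so these rows may count the same reads. Another apod row, ENSDARG00000057437, was at 7.91 ± 1.94 against 2.83 ± 1.40 CPM (-1.48 in log2, adjusted p = 0.0358). Its call was lost under total counts alone (-0.28 in log2, adjusted p = 0.726). It was also lost without both scale libraries of fewest detected genes (adjusted p = 0.0883). The same held without the second column of scale replicate 3 (0.0576), melanoma replicate 1 (0.0564) or melanoma replicate 4 (0.0580). The gene ambp, the neighbour of ptgdsa in the RefSeq annotation, was at 1.21 ± 0.741 against 0.256 ± 0.132 CPM (adjusted p = 0.0496). Its call was lost without any 1 of 7 of the 8 libraries, with adjusted p between 0.0667 and 0.101. It was also lost under total counts alone (adjusted p = 0.356), with limma-voom (0.0802), without a filter (0.0529) and with a replicate block (0.0969).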

How the data were processed

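Per the labels' protocols, libraries of sorted EGFP-positive cells were made with Illumina TruSeq kits. The deposited counts are whole reads per gene for 28272 Ensembl identifiers. The authors also deposited normalized signal: each count over its library's size factor, used only to obtain those factors. STAR 2.3, HTSeq, DESeq2 and build Zv9 are named, with no role or order, per the submitters' processing notes. How strand and multiply mapped reads were handled is not given in the sources used here. Reads of similar copies (ptgdsb.1 and ptgdsb.2, the apod rows) or of overlapping genes may thus be split or lost. Row sums were 40 or more.

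Columns were matched to samples by name, and the 2 columns that share a name were used as scale libraries without a number. Symbols were found for 19599 rows. Of 83 pathway symbols on 6 lists, 57 rows resulted. Members, lists and rules were chosen with earlier results of these data known. Named were all members, up to 2 risen and 2 fallen rows per pathway list by adjusted p, and the 3 nearest profiles of each member averaging 10 CPM or more.

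Genes kept by filterByExpr entered the quasi-likelihood test of edgeR 4.0.16 in R 4.3.3, with TMM scaling and group as the only term, with Benjamini-Hochberg adjustment over 26749 genes and a threshold of 0.05. SE, an approximation, is the absolute log2 change over the square root of the F statistic. Depth left counting error small above 1 CPM; limits for 0 counts cover counting error only. Libraries of a group all differed by more than counting noise (smallest chi-square per degree of freedom 127). Alternatives used DESeq2 1.42.0, limma 3.58.1, other scalings and filters, a replicate block and left-out libraries. Python 3.11.15, pandas 2.3.3 and matplotlib 3.10.9 served for tables and figures. A genome and sequence tables were not used here.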

Additional observations from a re-analysis of the deposited data

Results flagged for a closer look

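In 60 groups of 4 libraries, from the member rows and the named pathway rows, the distance of the highest or lowest library from its nearest neighbour was divided by the group's range, and 5 exceeded Dixon's critical value for 4 samples. For independent, normally distributed values chance alone would flag about 1 in 20 groups. The CPM values were not log-transformed and the groups share libraries, so that share need not hold here. Melanoma replicate 1 stood apart for 3 members: ptgs2 ENSDARG00000004539 at 66.2 CPM with 2.60 CPM in the next library, ptges at 1.89 CPM with 0.242 CPM next, and ptgis at 10.7 CPM with 2.49 CPM next. Melanoma replicate 3 stood apart for apoda.1, at 1298 CPM with 173 CPM next, and for the apod row ENSDARG00000060350, at 1302 CPM with 174 CPM next, which may count the same reads.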

How the results depend on the processing

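Of all tested genes 9855 passed the threshold, and 6555 did with a filter of 5 CPM in 4 libraries and 5977 at an adjusted p under 0.01. Of the 57 pathway rows 27 passed, and 11 of the 23 left by that filter and 16 at the stricter threshold. Higher calls were 58.8% of all calls with TMM, 41.6% with upper quartile factors and 85.9% with total counts alone, where the median change of all genes was 1.17. Among pathway rows these shares were 37.0%, 20.8% and 76.9%. Of the 11 member rows 8 passed, 5 under total counts alone and between 7 and 8 with any 1 library left out. Scale replicate 2 and the second column of replicate 3 had the fewest detected genes. Without both, 9 member rows passed, ptgdsa and pla2g4a ENSDARG00000017141 among them and ptges not. The libraries left out are those in which ptgdsa had 0 and 1 reads and that pla2g4a row 4 and 0. Omitting them keeps only the high scale pair for these rows, so nothing is read from their passing. Leaving out 1 library gave 20 to 26 pathway rows and 7723 to 9786 genes. The sign turned with limma-voom for pla2g4a ENSDARG00000017141 (0.13) and ptgdsa (0.37). Under total counts alone it turned for 1 member row, ptgs2 ENSDARG00000010276 (0.73), and 9 pathway rows, of which ephx2 (1.15) and pla2g7 (1.18) were then called higher. With upper quartile factors it turned for 5 pathway rows, and the median change of all genes was -0.39, against 0.05 with TMM. Fits with total counts alone or upper quartile factors differ from that with TMM only in scaling. The cause of the other changes was not tested, beyond the fewer genes left by the filter. Replicate numbers are known in both groups for 1 and 2 only, and deviations of same-numbered libraries correlated at -0.02 and 0.11. Differently numbered libraries were not compared, so these values cannot tell whether same-numbered libraries share more than a number. With numbers 1 and 2 as replicate blocks, and all other libraries of both groups together in a further block, 9376 genes, 23 pathway rows and 8 member rows passed. Rows below about 1 CPM (ptgdsa, ptger1, ptger3) rest on few reads in several libraries.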
